A study of Mus musculus with 12 samples.

Results

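The numbered G protein-coupled receptor genes are those whose symbol is Gpr followed by a number, with or without 1 closing letter. They were found by that pattern in the gene symbol column of the count table, which 74 of 27179 genes matched. G protein-coupled receptors cross the membrane 7 times and pass the binding of an outside ligand to G proteins inside the cell. Those coupled to Gs raise cyclic AMP, the signal through which epinephrine drives fat breakdown in adipocytes, and those coupled to Gi lower it. A Gpr number was given to receptors cloned before a ligand was known, and the set is mixed. Some members have since been paired with a ligand, such as oxysterols or protons, while others are membrane proteins of organelles that are not classical receptors.

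RNA sequencing was done on epididymal white adipose tissue (eWAT), the fat pad beside the epididymis, of 12 male C57BL/6J mice fed chow. The epinephrine group of 6 mice was given sodium epinephrine at 0.5 mg/kg into the peritoneum, and the vehicle group of 6 mice an equal volume of saline, with the tissue taken 1 h later. The listed ages are 18 to 23 weeks in the epinephrine group and 12 to 17 weeks in the vehicle group, so that age and treatment cannot be told apart. They rise by exactly 1 week from each replicate number to the next in both groups, and whether they are the true ages of the mice is not known, which limits every fit that uses them. Each library is called by its group and replicate number, and the replicates are labelled as biological ones.

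Libraries held 24821601 to 34405433 counts over all genes, and the 74 members together took 0.0519% to 0.0595% of them. Adipocyte markers were high in every library, at 9698 to 22764 CPM (counts scaled by library size) summed over 6 genes with epinephrine and 6608 to 22031 with vehicle. Some libraries also carried transcripts of the epididymis. Gpx5, an epididymal secreted enzyme, took 1.09%, 0.930% and 1.98% of counts in epinephrine 1, epinephrine 2 and vehicle 2, 0.398% in vehicle 3 and at most 0.0523% in the other libraries. Epididymal genes were not confined to the libraries high in Gpx5. Summed over 11 epididymis and testis genes, they reached 28059, 20693 and 36603 CPM in epinephrine 1, epinephrine 2 and vehicle 2, 3565 CPM in epinephrine 3, 3299 CPM in vehicle 1, 7487 CPM in vehicle 3, 1008 CPM in vehicle 4 and at most 222 CPM in the others. Levels below are CPM scaled with TMM factors where 1 gene is followed across libraries, and the same values per kilobase of gene length (RPKM) where genes are compared with each other.

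Of the 74 members, 48 had enough reads to be tested, the rule being about 10 counts in at least 6 libraries. They were spread widely in level. By mean RPKM in vehicle, 6 tested members were at 10 or more, 19 between 1 and 10 and 23 below 1. The median was 1.23 RPKM, against 7.21 RPKM for all 16175 genes tested. A further 21 members had at least 1 read but too few to test, and 5 had 0 counts in all 12 libraries. These 5 were Gpr6, Gpr26, Gpr101, Gpr139 and Gpr149, mostly known as receptors of the brain. A count of 0 allows up to 3 counts, which is 0.0885 to 0.132 CPM per library.

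**Figure D1:**
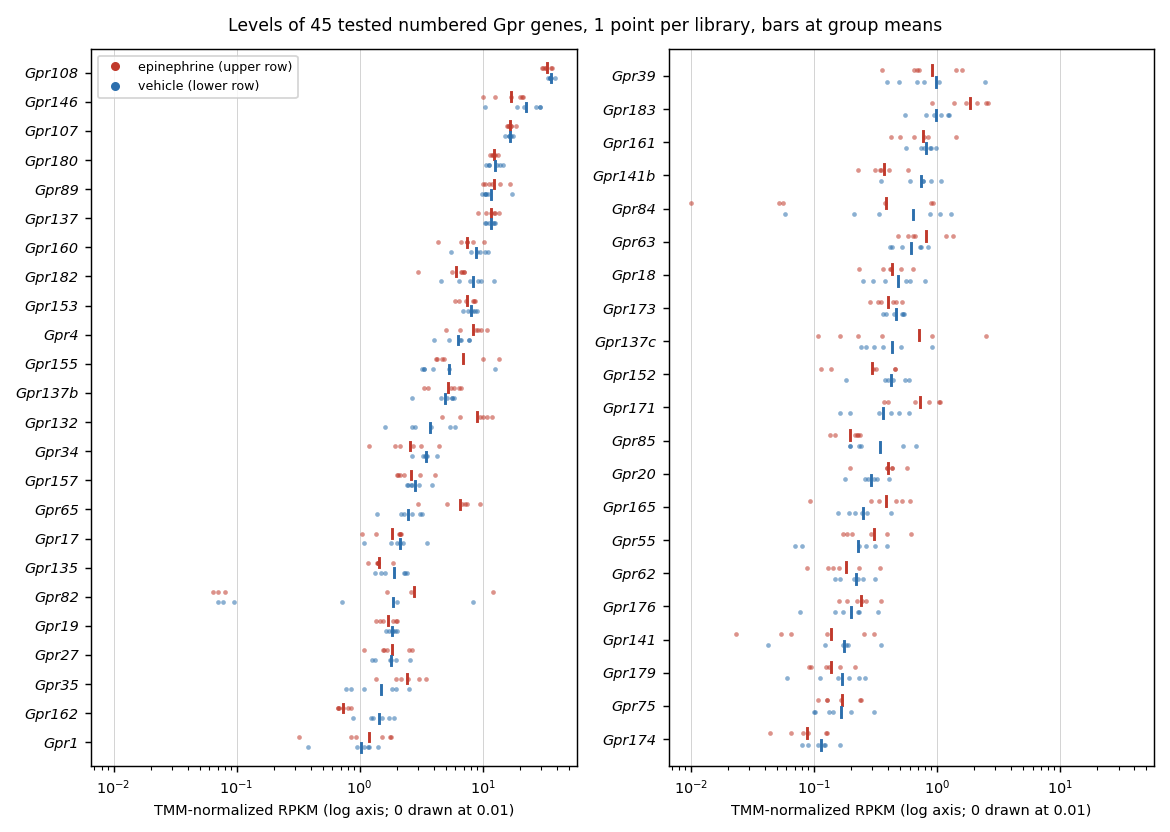
Levels of 45 tested members in TMM-normalized RPKM on a log axis, with epinephrine libraries in red above vehicle libraries in blue, 1 point per library and a bar at each group mean. Members are ordered by their vehicle mean, from Gpr108 at 35.7 RPKM to Gpr174 at 0.115 RPKM.

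The most abundant members were largely proteins of the organelles. Gpr108, a Golgi protein, came first, at 33.2 ± 2.47 RPKM with epinephrine and 35.7 ± 1.67 RPKM with vehicle (SD, n = 6 each, as for all levels below). Gpr107, its Golgi relative, was at 16.8 ± 1.01 RPKM with epinephrine and 16.6 ± 0.874 RPKM with vehicle. Gpr180 was at 12.3 ± 0.675 RPKM with epinephrine and 12.5 ± 1.63 RPKM with vehicle. Gpr89, an anion channel of the Golgi, was at 12.4 ± 2.44 RPKM with epinephrine and 11.7 ± 2.87 RPKM with vehicle. Gpr137, a lysosomal membrane protein, was at 11.7 ± 1.56 RPKM with epinephrine and 11.6 ± 0.939 RPKM with vehicle. The vehicle values of Gpr180, Gpr89 and Gpr137 lay within 1 SD of each other, so their order is not settled.

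The highest class A receptor, the family with most hormone and odorant receptors, was Gpr146. This receptor is known from the liver, where its loss lowers blood cholesterol. It stood second in vehicle, at 17.0 ± 4.72 RPKM with epinephrine and 22.7 ± 7.25 RPKM with vehicle. Next in vehicle came Gpr160 at 8.91 ± 1.97 RPKM, Gpr182, a chemokine-binding receptor of lymphatic and sinusoidal endothelium, at 8.40 ± 2.73 RPKM, Gpr153 at 8.09 ± 0.748 RPKM and the proton sensor Gpr4, known from blood vessels, at 6.33 ± 1.44 RPKM. Gpr160, Gpr182 and Gpr153 lay within 1 SD of their neighbours in this order, while Gpr153 and Gpr4 differed by more than the SD of either.

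With epinephrine against vehicle, edgeR's quasi-likelihood test called 3 of the 48 tested members at an adjusted p under 0.05. Gpr65 and Gpr132 were higher and Gpr162 was lower. Across all genes tested, 6.23% were called, 2.65% higher and 3.58% lower, and the members' share of 6.25% is at that background. At an unadjusted p under 0.05 there were 9 members, or 18.8%, against 17.2% of all genes tested. Of the tested members, 22 had a positive and 26 a negative log2 fold change, with a median of -0.09 against -0.00059 for all genes tested.

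Other settings called other shares of all genes, against which their member counts are to be read. Scaling by RLE, upper quartile or library size called 5.61%, 7.13% and 11.2%, a mean CPM of at least 1 called 6.52%, limma on the deposited log2-like values 5.82% and limma-voom 15.6%. The replicate block called 4.64%, the epididymal score as covariate 10.6% and listed age 23.9%. With listed age in the fit the calls of Gpr65, Gpr132 and Gpr162 ended, at log2 fold changes of 0.09, -0.20 and -0.63 (edgeR adjusted p = 0.856, 0.736 and 0.223). Thresholds of 0.01 and 0.1 called 2.55% and 8.77%. Within numbers 1 to 3 edgeR called 0%, with 1356 genes at an unadjusted p under 0.05, and within numbers 4 to 6 it called 8.39%. Without the 3 libraries with Gpx5 above 0.5% the share was 11.2%. Leaving out epinephrine 1 to 6 in turn gave 8.07%, 4.82%, 4.16%, 3.94%, 4.23% and 4.81%, and leaving out vehicle 1 to 6 in turn gave 4.22%, 6.99%, 4.23%, 3.78%, 4.75% and 5.06%.

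**Figure D2:**
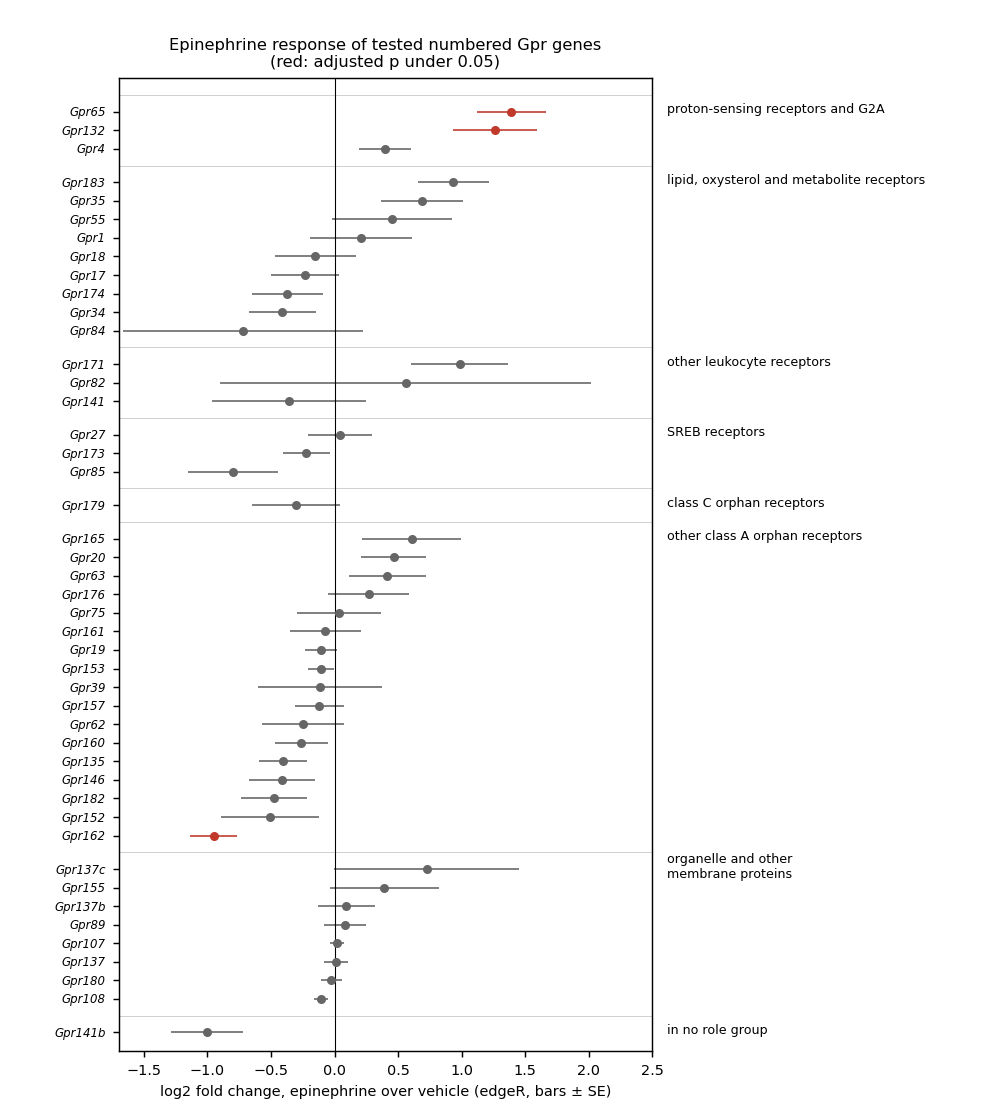
Log2 fold change of epinephrine over vehicle for 45 tested members, by role, with bars of ± 1 SE from edgeR. Gpr65 at 1.39, Gpr132 at 1.26 and Gpr162 at -0.95 are the called members, in red.

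Proton-sensing receptors such as Gpr4 and Gpr65 couple to G proteins, mainly Gs, when the fluid outside the cell turns acid. Gpr132 (G2A) is their relative in sequence and responds to oxidized fatty acids. All 4 members of this group were tested. Gpr65 and Gpr132 were called higher and 0 were called lower, where 6.23% of all genes tested were called. The group was mixed in direction, with 3 positive log2 fold changes and 1 negative, and 3 of the 4 had an unadjusted edgeR p under 0.05.

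Gpr65, a receptor of T cells and macrophages, was at 6.06, 14.2 and 19.3 CPM (lowest, median and highest) with epinephrine, against 2.82, 5.05 and 6.52 CPM with vehicle. In 5 of 6 epinephrine libraries it stood above every vehicle library, and the exception was epinephrine 1. The log2 fold change was 1.39 with an SE of 0.27, and it passed with edgeR's adjusted p = 0.0106. Gpr65 (Entrez 14744) spans 98268635 to 98276722 of chromosome 12 in GRCm38. Of its 2069 exonic bases in GENCODE M21, 511 lie opposite an exon of the gene model Gm47566, and the strand setting of the counts is not given in the sources used here. Reads from the 2 strands there cannot be told apart.

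Gpr132, found on macrophages and lymphocytes, was at 11.3, 23.9 and 29.2 CPM (lowest, median and highest) with epinephrine, against 3.90, 8.07 and 14.5 CPM with vehicle. Again epinephrine 1 was the only epinephrine library inside the vehicle range. It rose by a log2 fold change of 1.26 with an SE of 0.33, at edgeR's adjusted p = 0.0440. This call was the weakest of the 3, and it ended on leaving out any 1 of epinephrine 2 to 6 or vehicle 1, 3 or 4, with edgeR adjusted p between 0.0543 and 0.102. It also ended without the filter on low counts (edgeR adjusted p = 0.0604) and within numbers 4 to 6 (log2 fold change 1.10, edgeR adjusted p = 0.0604). Gpr132 (Entrez 56696) lies on chromosome 12, positions 112850873 to 112868416 of GRCm38, and no exon of another gene overlaps its exons.

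Gpr4 did not pass in the reported fit. It was at 24.1 ± 6.18 CPM with epinephrine and 18.3 ± 4.14 CPM with vehicle (log2 fold change 0.40, SE 0.20, edgeR adjusted p = 0.363).

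Gpr65 and Gpr132 are receptors of leukocytes, and the leukocyte markers give their level in the same libraries. In bulk tissue, a change in the number of cells of a type and a change in RNA per cell cannot be told apart. The 6 macrophage and monocyte markers summed to 619 to 1764 CPM with epinephrine and 689 to 1458 CPM with vehicle, and 0 of 6 passed. The lowest sum of each group was in epinephrine 1 and vehicle 2, where Gpr65 and Gpr132 were also lowest. Their part in these results was not tested. The marker fold changes had a median of -0.06 on the log2 scale, with 1 positive and 5 negative. Csf1r, which encodes the macrophage growth factor receptor, was the most negative, at 237 ± 80.1 CPM with epinephrine and 279 ± 65.5 CPM with vehicle. Cd68 was the positive one, at 68.9 ± 18.8 CPM with epinephrine and 58.0 ± 11.8 CPM with vehicle. Of 3 B cell markers and 3 neutrophil markers, 0 passed. The B cell markers summed to 3.18 to 16.0 CPM with epinephrine and 2.31 to 14.9 CPM with vehicle, the neutrophil markers to 9.34 to 54.2 CPM with epinephrine and 5.75 to 64.1 CPM with vehicle. The T cell gene Cd3e was at 0.978 ± 0.278 CPM with epinephrine and 1.28 ± 0.384 CPM with vehicle. Of 6 T cell and NK cell markers 0 were higher and 1, the NK cell receptor Ncr1, was lower. The summed level of these 6 ran from 6.55 to 211 CPM with epinephrine and from 8.42 to 245 CPM with vehicle. Most of that spread came from Klrb1c, which was highest in the libraries with the most Gpx5.

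**Figure D3:**
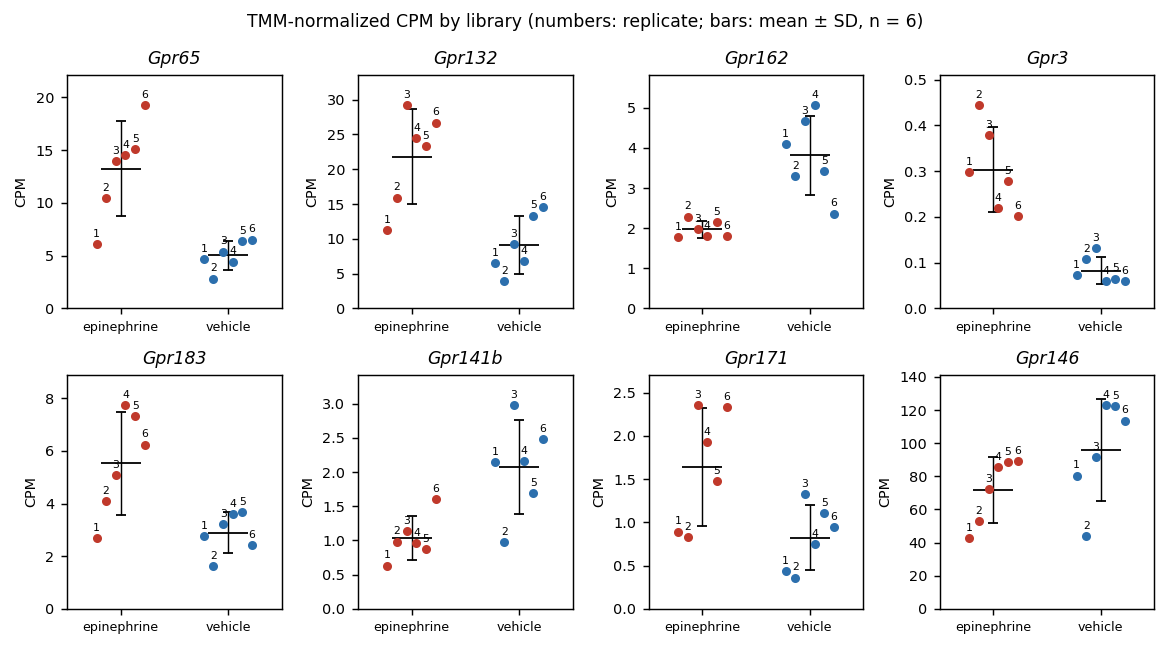
TMM-normalized CPM of 8 members in every library, with replicate numbers, epinephrine in red at left and vehicle in blue at right, and bars of mean ± SD (n = 6). Gpr162 and Gpr3 have groups that do not overlap, while Gpr65 and Gpr132 overlap through epinephrine 1 alone.

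Gpr162, an orphan class A receptor gene best known from the brain, fell to 0.517 of its vehicle level. It was at 1.79, 1.89 and 2.29 CPM (lowest, median and highest) with epinephrine, against 2.36, 3.75 and 5.07 CPM with vehicle. All 6 epinephrine libraries lay below all 6 vehicle libraries, in a tight range. On the log2 scale the change was -0.95 with an SE of 0.18, at an edgeR adjusted p = 0.00981. The call ended within numbers 4 to 6 alone, at a log2 fold change of -0.91 (edgeR adjusted p = 0.111), and within numbers 1 to 3 alone, at -0.97 (edgeR adjusted p = 0.383). Among the 48 tested members only Gpr162 had groups that did not overlap, against 4.79% of all genes tested, and 2.74% with every epinephrine library below. Gpr162 (Entrez 14788) lies on chromosome 6, positions 124858444 to 124864195 of GRCm38, with no exon of another gene over its own.

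Gpr3, Gpr6 and Gpr12 form a family of receptors that activate Gs without a ligand, and Gpr3 is known to be induced by cold in brown fat. All 3 had too few reads for the test. Gpr6 had 0 counts, Gpr12 had 2 counts in the 6 epinephrine libraries together and 2 in the vehicle libraries, and Gpr3 had 48 with epinephrine and 15 with vehicle. Gpr3 had reads in all 12 libraries, at 8, 14, 9, 5, 7 and 5 counts in epinephrine 1 to 6, against 2, 3, 4, 2, 2 and 2 counts in vehicle 1 to 6. Every epinephrine library was above every vehicle library, also as CPM, at 0.201 to 0.445 CPM with epinephrine and 0.0590 to 0.132 CPM with vehicle. Such separation in this direction was seen for 1.55% of all genes with at least 1 read. Without the filter on low counts, edgeR gave Gpr3 a log2 fold change of 1.82 (3.53-fold, adjusted p = 0.00888), and DESeq2 gave 1.92 (adjusted p = 0.00374). Of all genes, edgeR called 3.67% without the filter and DESeq2 8.66%. The vehicle values of Gpr3 are at most 4 counts per library. Of its 2734 exonic bases, 204 lie opposite an exon of Cd164l2. That gene was at 4.01 ± 0.595 CPM with epinephrine and 4.28 ± 0.818 CPM with vehicle, and did not pass (edgeR adjusted p = 0.879).

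The 250 bases before the RefSeq start of Gpr65, Gpr132 and Gpr3 are printed here because epinephrine drives fat breakdown through cyclic AMP. Whether cyclic AMP had a part in the levels of these genes was not tested. Gpr65 and Gpr132 were the members called higher, and Gpr3, too low for that test, was higher in the fit without the filter. They are given 5′ to 3′ on the strand of the gene, from GRCm38.p6. The start used for Gpr132 lies inside the span of the gene given above, and the table used here has no entry for Gpr162. Capitals mark TGACG on either strand (CGTCA on the other), the half-site of the cyclic AMP response element.
Gpr65, chr12:98268385-98268634, plus strand: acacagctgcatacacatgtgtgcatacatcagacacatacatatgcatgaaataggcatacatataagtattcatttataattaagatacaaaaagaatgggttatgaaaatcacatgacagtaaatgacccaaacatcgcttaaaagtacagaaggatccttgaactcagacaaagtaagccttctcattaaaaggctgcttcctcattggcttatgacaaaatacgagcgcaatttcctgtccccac
Gpr132, chr12:112860917-112861166, minus strand: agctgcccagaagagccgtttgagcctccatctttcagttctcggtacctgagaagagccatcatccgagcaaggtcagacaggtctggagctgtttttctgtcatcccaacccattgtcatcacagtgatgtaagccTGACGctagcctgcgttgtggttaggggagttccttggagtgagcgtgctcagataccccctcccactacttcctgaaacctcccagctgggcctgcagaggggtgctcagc
Gpr3, chr4:133212537-133212786, minus strand: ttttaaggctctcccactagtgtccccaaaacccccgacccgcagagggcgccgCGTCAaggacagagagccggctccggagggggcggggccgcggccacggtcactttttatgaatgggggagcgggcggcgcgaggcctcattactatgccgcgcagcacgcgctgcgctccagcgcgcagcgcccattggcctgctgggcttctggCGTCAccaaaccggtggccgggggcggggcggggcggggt

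Gpr3 held 2 half-sites, the nearer beginning 40 bases before the start, Gpr132 held 1, beginning 112 bases before it, and the Gpr65 window held none of these letters. The full palindrome TGACGTCA and the AP-1 element TGANTCA, searched on both strands, were in none of the 3 windows. Of the 32851 windows of this length in the RefSeq table, 17.8% held the half-site, 1.55% the palindrome, which contains the half-site, and 6.75% the AP-1 element. Of the 68 windows of the 52 members in that table, 15 held the half-site, 1 the palindrome and 3 the AP-1 element. Members that were not called also held the half-site, such as Gpr108, Gpr146 and Gpr180. A match describes the letters of the window and is not a bound site.

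Among receptors for lipids, oxysterols and other metabolites, 9 of 11 members were tested and 0 passed, with a median log2 fold change of -0.15. Gpr183 (EBI2), which guides lymphocytes along oxysterol gradients, was nearest to the threshold. It was at 2.68, 5.66 and 7.73 CPM (lowest, median and highest) with epinephrine, against 1.63, 2.99 and 3.68 CPM with vehicle. As for Gpr65 and Gpr132, 5 of 6 epinephrine libraries were above every vehicle library and epinephrine 1 was not. With a log2 fold change of 0.94 and an SE of 0.28, it missed the threshold at edgeR's adjusted p = 0.0750. Gpr35, a receptor that tryptophan metabolites activate, had a log2 fold change of 0.69 (SE 0.32, edgeR adjusted p = 0.307). The lysophosphatidylserine receptor Gpr34, the most abundant of this role, was at 2.59 ± 1.11 RPKM with epinephrine and 3.44 ± 0.515 RPKM with vehicle, with a log2 fold change of -0.41 (SE 0.26). Gpr17, a receptor of oligodendrocyte precursors in the brain, had 3510 reads over the 12 libraries and a log2 fold change of -0.23 (SE 0.27). It lies inside the span of Lims2 on the opposite strand, and 188 of its 5195 exonic bases lie opposite exons of Lims2. Gpr84, the medium-chain fatty acid receptor of activated myeloid cells, was among the most variable, at 0 to 1.45 CPM with epinephrine and 0.0899 to 2.04 CPM with vehicle. Gpr119, a fat sensor of gut and islet, and Gpr31b had 2 and 1 reads in all.

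Of the other leukocyte receptors, 3 of 6 were tested and 0 passed. Gpr171, expressed on T cells, was at 1.64 ± 0.682 CPM with epinephrine and 0.820 ± 0.377 CPM with vehicle, and its log2 fold change of 0.99 (SE 0.38) had an edgeR adjusted p = 0.186. A fit that blocks on replicate number called it, at an edgeR adjusted p = 0.0334 and a log2 fold change of 1.01. It was also called by limma-voom (adjusted p = 0.0350) and without the 3 libraries with Gpx5 above 0.5% (edgeR adjusted p = 0.0449). These were the 3 of 16 such settings that called it, and leaving out 1 library called it in 0 of 12 fits. With listed age as a covariate its log2 fold change was -0.49 (edgeR adjusted p = 0.570). Gpr15, Gpr25 and Gpr33 had between 8 and 37 reads in all and were not tested. Gpr141b, an orphan that stands beside its relative Gpr141 on chromosome 13, was in no role list. It was at 0.632, 0.975 and 1.61 CPM (lowest, median and highest) with epinephrine, against 0.976, 2.16 and 2.98 CPM with vehicle. The groups overlap through vehicle 2 alone, which is the lowest of the vehicle libraries, and the log2 fold change of -1.001 (SE 0.28) missed the threshold at an edgeR adjusted p = 0.0594. Gpr141 itself had a log2 fold change of -0.36 (SE 0.60), and whether the pair share reads was not tested.

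The SREB receptors Gpr27, Gpr85 and Gpr173, conserved orphans of the nervous system, were all tested and 0 passed. Gpr27, known for a role in insulin secretion, was highest, at 1.84 ± 0.612 RPKM with epinephrine and 1.79 ± 0.474 RPKM with vehicle. Gpr85 was at 0.587 ± 0.131 CPM with epinephrine and 1.02 ± 0.608 CPM with vehicle, with the spread in vehicle coming from vehicle 5 and 6 at 1.56 and 2.01 CPM (log2 fold change -0.80, SE 0.36, edgeR adjusted p = 0.266). Of the class C orphans, which belong with the glutamate and GABA receptors, 2 were tested and 0 passed. Gpr179 had a log2 fold change of -0.30 (SE 0.35). Gpr158 had 1 read.

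Among the remaining class A orphans, 18 of 34 were tested, 0 were higher and 1 was lower, Gpr162, with a median log2 fold change of -0.12. Gpr135 was at a log2 fold change of -0.41 (SE 0.19), with an edgeR adjusted p = 0.297. Gpr146 was at 42.7, 78.9 and 89.2 CPM (lowest, median and highest) with epinephrine, against 44.1, 103 and 123 CPM with vehicle. Its lowest values were in epinephrine 1, epinephrine 2 and vehicle 2, the 3 libraries with the most Gpx5 and the least adipocyte marker RNA. In these 3 the adipocyte markers summed to 9698, 14468 and 6608 CPM, against 15508 to 22764 CPM in the others. On the log2 scale Gpr146 differed by -0.41 (SE 0.26), with an edgeR adjusted p = 0.497. Within numbers 4 to 6, 3 mice against 3, it was -0.45 and passed (edgeR adjusted p = 0.00628), and within numbers 1 to 3 it was -0.35 and did not (edgeR adjusted p = 0.886). In those numbers it was at 85.7, 88.7 and 89.2 CPM in epinephrine 4 to 6, against 123, 122 and 114 CPM in vehicle 4 to 6. Gpr182 likewise had a log2 fold change of -0.48 (SE 0.26, edgeR adjusted p = 0.395) over all 12 libraries and -0.61 within numbers 4 to 6 (edgeR adjusted p = 0.0326), against -0.26 within numbers 1 to 3 (edgeR adjusted p = 0.948).

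Of the 9 organelle and other membrane proteins with a Gpr number, 8 were tested and 0 passed, and 6 of the 8 had a log2 fold change between -0.11 and 0.09. Gpr107 had a log2 fold change of 0.02 (SE 0.05), Gpr137 of 0.01 (SE 0.09), Gpr180 of -0.02 (SE 0.08), Gpr89 of 0.08 (SE 0.16) and Gpr108 of -0.11 (SE 0.06). Gpr137b was at 0.09 (SE 0.22), and its level is uncertain because the table also lists its copy Gpr137b-ps. The ocular albinism gene Gpr143, a pigment cell receptor, had 4 reads and was not tested.

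Several members stood high in a few libraries of both groups. Gpr82, which lies inside the span of Cask on the opposite strand, was at 30.1, 6.51 and 4.20 CPM in epinephrine 1 to 3 and at 20.8, 4.99 and 1.79 CPM in vehicle 1 to 3. In numbers 4 to 6 of both groups it was at most 0.240 CPM. Epinephrine 1 and vehicle 1 alone held 72.2% of its reads, the only tested member with over 50% of reads in 2 libraries. Gpr155, a lysosomal cholesterol sensor, was at 69.5, 50.8 and 63.6 CPM in epinephrine 1, epinephrine 2 and vehicle 2, and at 16.4 to 27.3 CPM elsewhere. Gpr45 was at 4.05, 3.97 and 6.83 CPM in the same 3 libraries and at 0 to 1.49 CPM elsewhere, too few reads in the others to be tested. The zinc receptor Gpr39 was at 4.28, 3.84 and 6.69 CPM there and at 0.966 to 2.81 CPM elsewhere. Of its 3015 exonic bases, 1202 lie opposite exons of Lypd1, and reads from the 2 strands there cannot be told apart. Gpr137c was highest in epinephrine 1 at 6.14 CPM, with 2.22 CPM in epinephrine 2, 2.24 CPM in vehicle 2 and 0.264 to 1.24 CPM elsewhere. Gpr155, Gpr45 and Gpr39 were thus highest in the 3 libraries with the most Gpx5, while Gpr82 was highest in epinephrine 1 and vehicle 1. In vehicle 1 Gpx5 took 0.00217% of counts. Lcn8, Lcn9 and Cst8 were also low there, at 8.02, 3.46 and 4.45 CPM, against 4678, 3147 and 930 CPM in vehicle 2. Other epididymal genes were high in vehicle 1, such as Lcn5 at 1281 CPM and Adam7 at 697 CPM. Crisp1, a secreted protein of the epididymis, was highest in the same pair of libraries as Gpr82, at 3015 CPM in epinephrine 1 and 1138 CPM in vehicle 1, against at most 522 CPM elsewhere. Crisp1 was picked after its values were seen, and Gpx5, Lcn8, Lcn9 and Cst8 were highest in vehicle 2. The part of epididymal tissue in these levels was not tested.

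**Figure D4:**
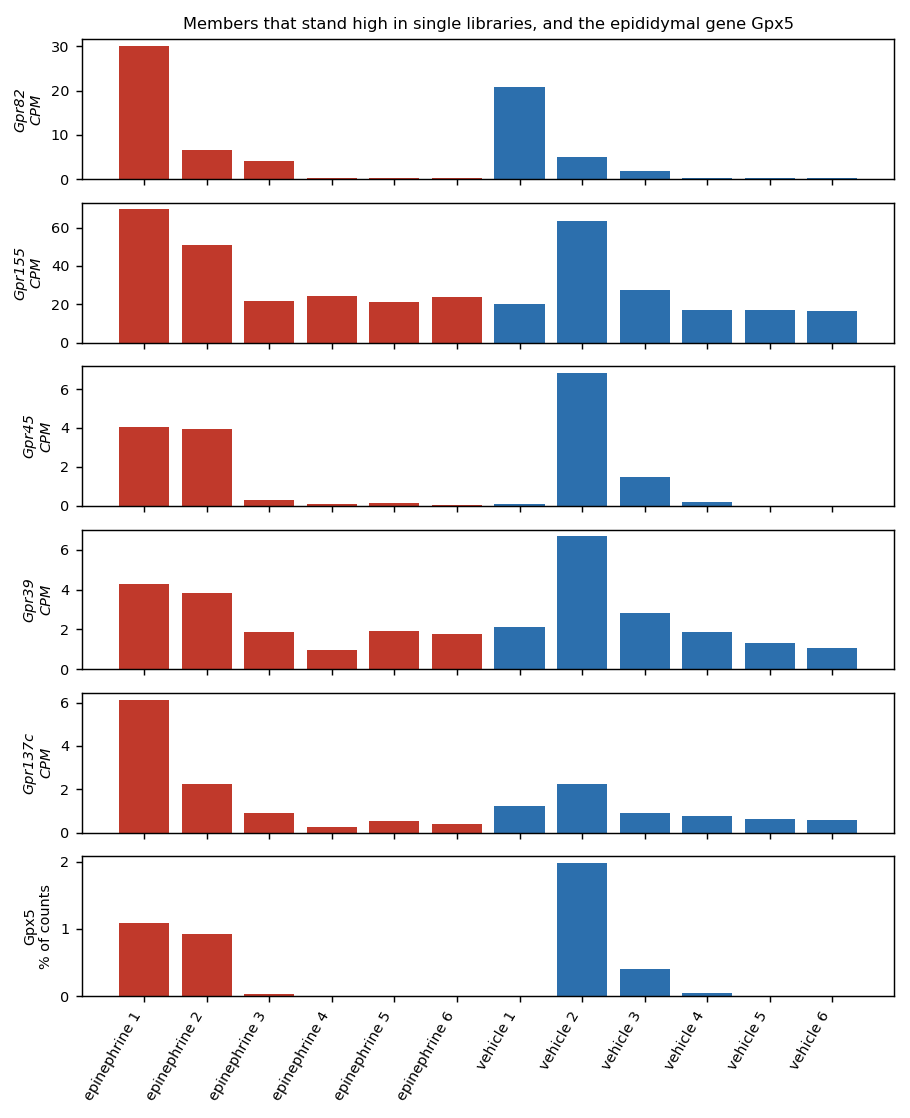
TMM-normalized CPM of 5 members in each of the 12 libraries, epinephrine in red at left and vehicle in blue at right, 1 bar per library, with the percent of counts taken by Gpx5 in the lowest panel. Gpr155, Gpr45 and Gpr39 are highest where Gpx5 is highest, and Gpr82 is highest in epinephrine 1 and vehicle 1.

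Other receptors were compared from lists of genes that once carried a GPR number and were renamed. Across all genes tested, 6.23% were called and 17.2% had an unadjusted edgeR p under 0.05. Of 27 such class A receptors 19 were tested, 1 was higher and 1 lower, with a median log2 fold change of -0.13. At an unadjusted edgeR p under 0.05 there were 7 of the 19. P2ry10, a lysophosphatidylserine receptor of lymphocytes, was at 6.85 ± 2.32 CPM with epinephrine and 2.42 ± 0.792 CPM with vehicle (log2 fold change 1.499, SE 0.28, edgeR adjusted p = 0.00906). The other was the apelin receptor gene Aplnr, with a log2 fold change of -1.38. Of 17 adhesion receptors 12 were tested and 0 passed by edgeR, also 0 at an unadjusted p under 0.05. Adgrg1 was called higher by limma-voom, within numbers 4 to 6, without vehicle 2 and without the 3 libraries with the most Gpx5, and with listed age as a covariate 3 adhesion genes were. Adgrg2, an adhesion receptor of the epididymis, was at 468 ± 501 CPM with epinephrine and 462 ± 687 CPM with vehicle. Of 5 class C Gprc genes 3 were tested and Gprc5a, a retinoic acid-induced gene, was higher, at 29.7 ± 7.11 CPM with epinephrine and 15.4 ± 5.62 CPM with vehicle (edgeR adjusted p = 0.0476). Its call ended on leaving out any 1 of epinephrine 2 to 6 or vehicle 1, 3, 4 or 6.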

How the data were processed

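The authors deposited whole-number counts of reads per gene and a second table of variance-stabilized values on a log2-like scale (used here in 1 alternative fit). Per the submitters' processing notes, FastQC, cutadapt, HISAT2, featureCounts and DESeq2 were used with mm10; no version, annotation or strand setting is named there. The gene lengths deposited with the counts gave RPKM.

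Low genes were removed by filterByExpr of edgeR (at its defaults, a minimum count of 10 and a total of 15). The rest were scaled with TMM and tested with glmQLFit (robust) and glmQLFTest in edgeR 4.0.16 (limma 3.58.1, R 4.3.3), with Benjamini-Hochberg adjustment over all 16175 genes tested and a threshold of 0.05. The test was also run on simulated counts with known changes. Those counts had the same dispersion for every gene and no spread of epididymal RNA between libraries. They therefore do not show how the test behaves on these libraries. SE is the size of the unshrunk log2 fold change over the square root of F. The common biological coefficient of variation was 0.451. The 1312 genes without a symbol were kept. Titles give the replicate numbers. Deviations from the group mean correlated between the libraries of each number (r across genes 0.262 to 0.799). This was above 0.1, the limit set for trying a block on number, but the labels do not say that numbers pair mice. The epididymal score (defined below) also fell with number, from 8.92 to 0.675 over epinephrine 1 to 6 and from 8.88 to -1.72 over vehicle 2 to 6. In vehicle 1 it was 4.87. Its part in these correlations was not tested. Of the 12 libraries, 3 correlated best with their own number.

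Members and lists were chosen with earlier results of these data known. Named members are those called, the 10 with the smallest p, the 10 highest in vehicle RPKM, Gpr3, up to 3 per role, those at 0, and those concentrated in few libraries; other members are examples chosen after their values were seen. The settings varied were the scaling (RLE, upper quartile, library size), the filter (none, or mean CPM of 1 or more) and the tool (limma-voom, or DESeq2 in version 1.42.0), limma on the deposited log2-like values, the block, listed age or the epididymal score (mean log2 CPM of 11 epididymis and testis genes, prior count 1) as covariate, thresholds of 0.01 and 0.1, numbers 1 to 3 or 4 to 6 alone, leaving out the 3 libraries with Gpx5 above 0.5%, and leaving out each library. Positions are from RefSeq on GRCm38.p6, which all 74 members matched by Entrez identifier. Exon overlaps are from GENCODE M21 on GRCm38, which holds 73 of them. Of these, 21 had exon overlap on the opposite strand and 4 on the same strand, and only some are named above. Some members are not reported here by name and are left out of the figures; counts over all members include them.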

Additional observations from a re-analysis of the deposited data

Results flagged for a closer look

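In 6 of 60 groups of 6 libraries looked at for a library that stands apart, 1 library did so by Dixon's gap ratio, which chance gives in about 1 of 20 groups. Gpr82 was at 30.1 CPM in epinephrine 1, against 0.159 to 6.51 CPM in the other epinephrine libraries, and at 20.8 CPM in vehicle 1, with 0.177 to 4.99 CPM in vehicle 2 to 6. Gpr182 was lowest in epinephrine 1, at 5.06 CPM, while the rest of its group held 9.49 to 12.0 CPM. Gpr135 was highest in epinephrine 3, at 2.56 CPM against 1.62 to 1.95 CPM. Gpr89 was at 30.8 CPM in vehicle 2, where the rest of the group held 17.4 to 19.5 CPM, and Gpr108 at 81.4 CPM in vehicle 2, against 70.9 to 74.7 CPM. Up to 1498 of the 5365 exonic bases of Gpr89 lie opposite exons of Gja5 and Pdzk1. Vehicle 2 had the largest Gpx5 share of all libraries, 1.98% of counts. The part of epididymal tissue in these values was not tested.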

How the results depend on the processing

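The count of higher members, 2 in the reported fit, was 4 with DESeq2, 4 with the epididymal score as covariate, 6 with limma-voom, 5 without the 3 libraries with Gpx5 above 0.5%, 0 within numbers 1 to 3, 0 at a threshold of 0.01 and 1 to 3 on leaving out each library in turn. It was 1 without any 1 of epinephrine 2 to 6 or vehicle 1, 3 or 4, where Gpr132 dropped out. The count of lower members, 1 in the reported fit, was 2 with DESeq2, the epididymal score, library-size scaling, limma-voom or a threshold of 0.1, 3 without the libraries with Gpx5 above 0.5%, 7 with listed age, 0 within numbers 1 to 3, 3 within numbers 4 to 6 (Gpr135, Gpr146 and Gpr182, without Gpr162) and 1 to 2 on leaving out each library. Within numbers 1 to 3 edgeR called 0 of 16709 genes, with 1356 genes and 4 members at an unadjusted p under 0.05, and the log2 fold changes of Gpr65, Gpr132 and Gpr162 were 1.26, 1.53 and -0.97. Gpr65 and Gpr162 passed on leaving out any 1 library. With listed age as a covariate, Gpr132 had a log2 fold change of -0.20 and Gpr65 of 0.09, and the cause was not tested. The replicate block gave 3 higher members and 1 lower, adding Gpr171, and changed no other call among members. Gpr141b and Gpr183 passed with DESeq2 (adjusted p = 0.0144 and 0.0131). Over all settings other than leaving out 1 library, Gpr141b was called in 7 of 16 and Gpr183 in 6 of 16. For both, these include the threshold of 0.1. The log2 fold changes there ran from -1.71 to -0.25 for Gpr141b and from -0.12 to 1.14 for Gpr183. On leaving out each library in turn, Gpr141b was called in 2 of 12 fits and Gpr183 in 1 of 12. Besides leaving out 1 library, Gpr4 and Gpr35 were each called in 2 of 16 other settings and Gpr82 in 1 of 14. Over those settings their log2 fold changes ran from -0.42 to 0.51, -0.64 to 0.91 and -1.65 to 10.1. Library-size scaling moved the median of all genes to -0.11 (log2), while Gpr65, Gpr132 and Gpr162 kept their direction and call under every scaling tried. The number of members detected was 38 to 51 under other minimum counts, a mean CPM of at least 1 or reads in all 12 libraries, and 69 without a filter (at least 1 read). Members below 1 RPKM rest on few reads, and no limit of detection was computed.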

Other observations

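Of the members too low to test, Gpr50 and Gpr142 had most of their reads in 1 or a few libraries. Gpr50, the melatonin-related receptor, had 47 reads with epinephrine and 22 with vehicle, of which 38 were in epinephrine 1. Gpr142, a tryptophan receptor of islets, had 27 reads with epinephrine and 46 with vehicle, with 35 in vehicle 2 alone.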
